A study of Mus musculus with 18 samples.

Results

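Insulin receptor signalling and the glucose transporter GLUT4 were followed through 8 genes: Insr, Irs1, Irs2, Pik3r1, Akt2, Tbc1d4, Slc2a4 and Slc2a1. They were picked by symbol from the 53465 genes in the count table of each library, and all 8 were found and passed the filter on low counts in every fit. The libraries came from skeletal muscle (SKM), white fat (WAT) and brown fat (BAT) of wild-type C57BL/6J mice on normal chow. Mice received either quercetin, a plant flavonol, at 0.125 mg/kg by gavage, or only its vehicle, which was 100 µL of phosphate-buffered saline with 10% PEG400. There were 18 libraries, 3 for each tissue and arm, numbered 1 to 3 in the titles. The sources used here do not state sex, age or time on treatment of these mice, nor the depot of the white fat. A weekly schedule in old males is stated for the lifespan experiment only. The titles carry the same code in each tissue (PEG1 to PEG3 with vehicle, QUE1 to QUE3 with quercetin), so the 18 libraries may come from 6 mice, which no other label states. The tissue tests treat libraries as independent, and results that change when each code is taken as 1 mouse are given beside them. The p-values rest on the spread among libraries only.

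Insulin binds a receptor tyrosine kinase that phosphorylates the adaptors IRS1 and IRS2. These recruit PI3 kinase, whose lipid product activates the kinase AKT2. AKT2 inhibits TBC1D4 (also called AS160), a brake on Rab GTPases, and vesicles that carry GLUT4 then move to the surface of muscle and fat cells, where GLUT4 takes up glucose. GLUT1, in contrast, resides at the surface of most cells without insulin.

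Total counts over genes lay between 8436308 and 12311345 per library. Several libraries stood apart from their label or group. The file of white fat vehicle 1 has white-rat in its header where the others name their tissue, and it was assigned by the sample that GEO records for it. The summed level of 10 skeletal muscle markers was 80538 to 150157 CPM (a gene's share of the library's counts, scaled with TMM factors) in muscle. It was 14.3 to 87.1 CPM in 5 white fat libraries and 1351 CPM in white fat vehicle 2. In brown fat it was 6.07 to 5825 CPM in 5 libraries and 37227 CPM in quercetin 3. The sum of 8 brown adipocyte markers was 3652 CPM in brown fat quercetin 3, against 8903 to 13717 CPM in the other 5 brown fat libraries. White fat also varied in its fat cell content: 8 adipocyte markers summed to 43547 CPM in vehicle 1, to 709 CPM in vehicle 2 and to 7422 to 23257 CPM in the other 4, while muscle libraries reached 9393 CPM. The sum of 5 B cell markers was 562 to 2969 CPM in white fat vehicle 2, vehicle 3, quercetin 1 and quercetin 3, and at most 3.14 CPM in the other 2. White fat vehicle 1 also had the highest sums of endothelial markers (3693 CPM, against 368 to 1098 CPM in the other 5) and red blood cell markers (811 CPM, against at most 111 CPM). Muscle quercetin 2 held 27386 CPM of 6 seminal vesicle markers. It also held 5182 CPM of adipocyte markers and 280 CPM of the brown adipocyte marker Ucp1, which was at most 0.699 CPM in the other 5 muscle libraries. Muscle vehicle 3 held 9393 CPM of adipocyte markers, and the other 4 muscle libraries held 658 to 1991 CPM. The flow cell was H7GKJDSXX for white fat vehicle 1, white fat quercetin 2 and muscle quercetin 3, and H7H2WDSXX for the rest. In such bulk samples, fewer cells of a type and less RNA per cell cannot be told apart.

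The 8 genes differed by tissue in 2 of their members above all. Slc2a4, the GLUT4 gene, and Akt2 were lower in all 6 white fat libraries than in any library of muscle or brown fat, and both passed the test in both comparisons. Calls for 2 and 3 of 8 genes there are no larger shares than the 40.3% (brown against white fat) and 50.3% (white fat against muscle) of all genes called. Brown fat and muscle did not differ past the threshold in any of the 8. With quercetin, 0 of 8 genes passed the test in any tissue. The arms did not overlap for Irs1 in muscle, where the quercetin libraries were higher, and for Irs2 in white fat, where they were lower, as for 9.16% and 4.43% of all genes in those tissues. The plot of levels by library shows every value.

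**Figure D1:**
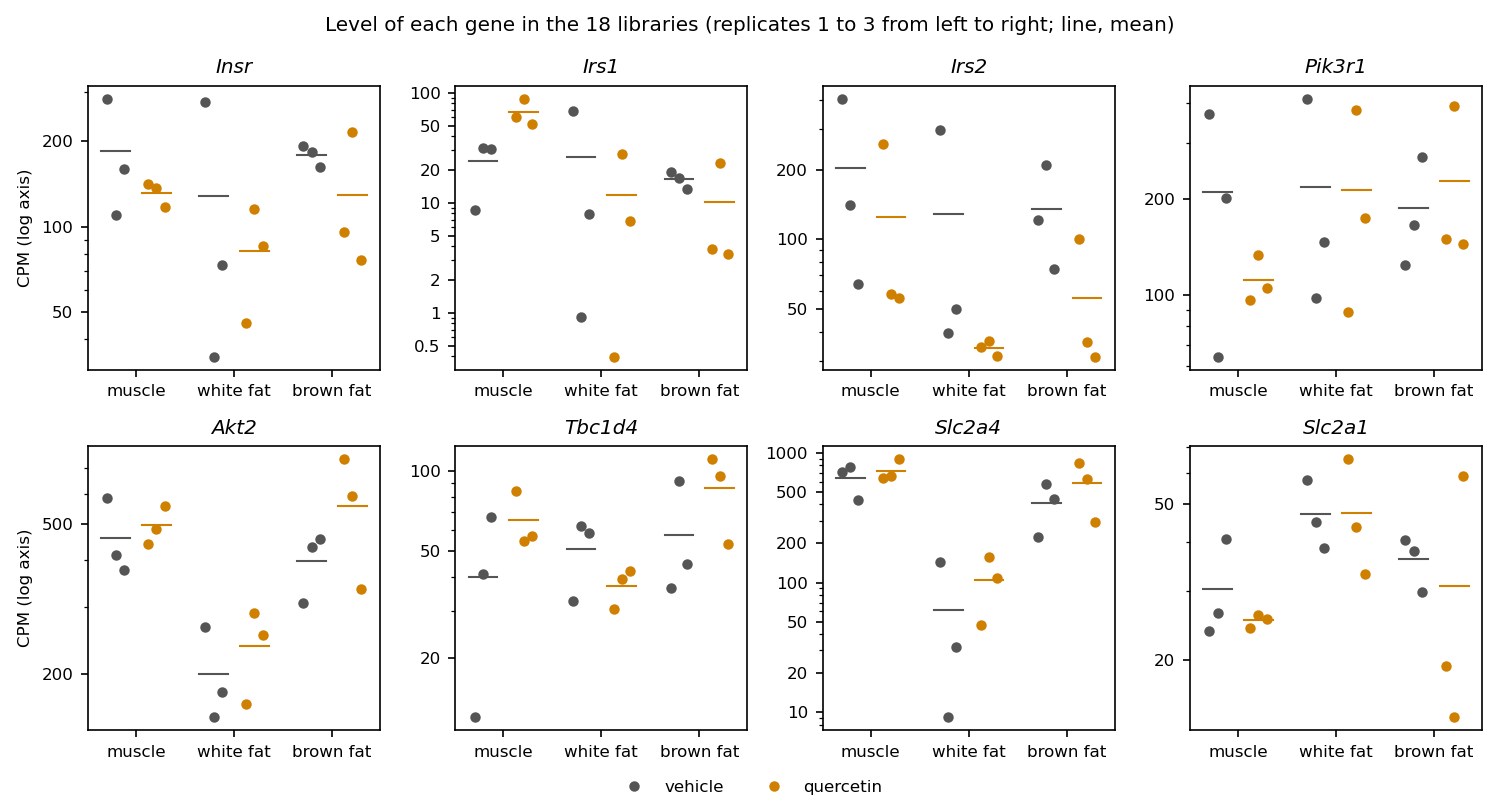
Level of each of the 8 genes (CPM, log axis) in the 18 libraries, by tissue and arm; points are libraries in the order 1 to 3 and lines are means of 3. The white fat points of Slc2a4 lie between 9.18 and 157 CPM, below all muscle and brown fat points, and white fat vehicle 1 is the highest white fat point for Insr, Irs1, Irs2 and Pik3r1.

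On a scale that allows genes to be compared, CPM per kilobase of exon, Slc2a4 had the highest median in muscle (197, n = 6) and brown fat (145), followed by Akt2 (65.0 and 62.2). The ranges of these 2 genes did not overlap in muscle but did in brown fat. In white fat Akt2 came first (30.4) and Slc2a4 next (22.2), and their ranges overlapped. Irs2, Pik3r1, Insr, Slc2a1 and Tbc1d4 had medians of 7.30 to 16.3 in muscle, of 9.48 to 15.7 in brown fat and of 5.31 to 15.9 in white fat, with ranges that overlapped between neighbours in the order. Irs1 had the lowest median in all 3 tissues (4.55 in muscle, 1.65 in brown fat and 0.804 in white fat).

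Insr, the insulin receptor gene (chromosome 8, 3122061 to 3279617, minus strand, GRCm38), did not pass the test between tissues. Muscle libraries had 110 to 283 CPM (median 139), brown fat libraries 76.3 to 216 CPM (173) and white fat libraries 34.7 to 276 CPM (79.5). All 3 ranges overlapped, and the spread in white fat came with 1 library: vehicle 1 had 276 CPM and the next highest, quercetin 2, had 116 CPM. Without white fat vehicle 1, Insr was lower in white fat than in muscle (log2 difference -1.25, adjusted p = 0.00745) and lower than in brown fat (brown minus white 1.2, adjusted p = 0.0110), against -0.60 and 0.57 with it. Libraries with quercetin had estimates below vehicle in all 3 tissues, none past the threshold. In muscle, vehicle libraries 1 to 3 had 283, 110 and 160 CPM and quercetin libraries 142, 137 and 117 CPM (log2 fold change -0.53 ± 0.39, SE). White fat gave 276, 34.7 and 73.5 CPM with vehicle and 45.7, 116 and 85.6 CPM with quercetin (-0.68 ± 0.83). Brown fat gave 192, 183 and 162 CPM and then 95.5, 216 and 76.3 CPM (-0.47 ± 0.42). The arms overlapped in every tissue. Without vehicle 1 the estimate was -0.064 in muscle and 0.62 in white fat, and in brown fat it ran from -1.05 without quercetin 2 to -0.23 without quercetin 3.

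Irs1 (chromosome 1, 82233101 to 82291416, minus strand) and Irs2 (chromosome 8, 10984681 to 11008458, minus strand) encode the main adaptors between the receptor and PI3 kinase, and Irs2 transcription is known to be raised by FoxO factors, which insulin inhibits through AKT. The 250 bases before the start of each gene (RefSeq, GRCm38.p6, minus strand) are shown, counted from the RefSeq starts, which lie further upstream than the GENCODE gene ends given above, because these were the members whose arms did not overlap in a tissue. Capitals mark the E-box CACGTG, which reads the same on both strands, and the letters of the insulin response element, CAAAACA or on the other strand TGTTTTG.

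Irs1, chr1:82291440-82291689: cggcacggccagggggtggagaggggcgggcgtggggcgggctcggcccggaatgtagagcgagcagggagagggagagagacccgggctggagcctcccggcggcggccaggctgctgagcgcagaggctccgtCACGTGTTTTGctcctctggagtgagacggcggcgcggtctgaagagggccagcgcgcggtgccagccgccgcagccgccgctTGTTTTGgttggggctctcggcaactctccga

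Irs2, chr8:11008930-11009179: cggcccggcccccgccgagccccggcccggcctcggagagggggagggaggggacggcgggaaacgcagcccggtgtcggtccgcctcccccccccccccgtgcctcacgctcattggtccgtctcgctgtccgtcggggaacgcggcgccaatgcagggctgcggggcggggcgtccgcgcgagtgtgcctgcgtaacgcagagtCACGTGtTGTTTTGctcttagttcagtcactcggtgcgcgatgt

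In Irs1 the E-box shares 2 bases with the first of 2 insulin response element matches. In Irs2, 1 base separates the E-box from the single match. The E-box was found in 6.02% of 32851 promoter windows of this length and the insulin response element in 5.56%, on either strand. Both occurred in 0.295% of windows. An E-box that overlapped a following TGTTTTG or lay within 1 base of it, read on either strand, was found in 0.0213%. These were 7 windows of 7 genes: Irs1, Irs2, Irs4, Klf11, Pcbp1, Pyroxd1 and 1700019P21Rik. An E-box followed by CAAAACA, the other orientation, was not counted. That spacing and orientation were chosen after both sequences were seen, and a match to letters is a description, not a binding site. Windows for Akt2, Tbc1d4, Pik3r1 and Slc2a1, 8 in all, held neither motif. The letters GTAAACA or TGTTTAC, the only ones searched under the name of a FoxO element, were in none of the 10 windows and in 3.17% of all windows. Their absence does not mean that FoxO factors have no site in these windows.

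Irs1 was higher in all 3 muscle libraries with quercetin than in any with vehicle. Vehicle libraries 1 to 3 had 8.62, 31.5 and 31.0 CPM and quercetin libraries 60.4, 87.8 and 51.8 CPM. Means were 23.7 ± 13.1 and 66.7 ± 18.8 CPM (SD, n = 3), and edgeR estimated a log2 change of 1.45 ± 0.48 (SE, 95% interval 0.34 to 2.57). The unadjusted p was 0.0168 in edgeR's quasi-likelihood test and 0.910 after adjustment over 13562 genes, so Irs1 did not pass. Arms without overlap were found for 9.16% of muscle genes with a mean of at least 1 CPM. Irs1 estimates were 1.07 to 1.70 when each muscle library was left out in turn, the lowest without vehicle 1. Muscle quercetin 2, the library with seminal vesicle and fat transcripts, had the highest value, and without it the estimate was 1.22.

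In white fat, Irs1 ranged more widely than any other of the 8 genes. Vehicle libraries had 68.8, 0.918 and 7.82 CPM and quercetin libraries 0.397, 27.8 and 6.88 CPM, a 173-fold span. Its low end rests on 5 counts in quercetin 1 and 11 counts in vehicle 2, so the span is rough. The 2 highest values were in vehicle 1 and quercetin 2, which share a flow cell, hold the highest sums of adipocyte markers (43547 and 23257 CPM) and have B cell marker sums of 1.20 and 3.14 CPM. The 2 lowest were in quercetin 1 and vehicle 2, with the lowest adipocyte sums (7422 and 709 CPM) and the highest B cell sums (2969 and 2353 CPM). The part of fat cell content in the level of Irs1 was not tested. Quercetin estimates for Irs1 were -1.18 ± 1.75 in white fat, where they turned to 1.44 without vehicle 1, and -0.70 ± 0.74 in brown fat. Brown fat vehicle libraries had 19.1, 16.8 and 13.4 CPM and quercetin libraries 3.82, 23.1 and 3.45 CPM, so quercetin 2 lay above all vehicle libraries and the other 2 below. The difference of the Irs1 estimate between white fat and muscle was -2.63 ± 1.74 (edgeR interaction adjusted p = 0.999988).

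Between tissues, Irs1 had a median of 41.7 CPM in muscle, 7.35 CPM in white fat and 15.1 CPM in brown fat. None of the differences passed: brown fat minus muscle was -1.62 ± 0.88 (adjusted p = 0.192), white fat minus muscle -1.19 ± 0.87 and brown minus white fat -0.43 ± 0.86. Without white fat vehicle 1, white fat was lower than muscle (-2.50, adjusted p = 0.0201). Irs1 has an antisense neighbour, Gm9747, that covers 30.9% of its exon bases. Gm9747 had 0 counts in all 18 libraries. The strand setting of the counting is not given in the sources used here. Whether reads in the shared bases were counted for Irs1 or set aside as ambiguous is therefore not known. Levels of Irs1 per kilobase, and its ratio to Irs2, may thus be too low.

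Irs2 had estimates below vehicle in all 3 tissues, and none passed the threshold. In white fat, vehicle libraries had 296, 39.4 and 50.3 CPM and quercetin libraries 34.2, 36.3 and 31.4 CPM. All 3 quercetin libraries lay below all vehicle libraries, an arrangement found for 4.43% of white fat genes in either direction, and vehicle 1 was far above the next library. The log2 fold change was -1.97 ± 0.85 (95% interval -4.03 to 0.09, unadjusted p = 0.0578, adjusted p = 0.999802 by edgeR), and it was -0.40 without vehicle 1. In brown fat, vehicle libraries had 121, 209 and 74.6 CPM and quercetin libraries 100, 35.9 and 31.1 CPM. The lowest was quercetin 3, the library with muscle transcripts and the lowest brown adipocyte marker sum of brown fat. Quercetin 1 lay above vehicle 3, so the arms overlapped. The estimate was -1.30 ± 0.55 (unadjusted p = 0.0495, adjusted p = 0.977) and it stayed below 0 with each library left out (-1.99 to -0.83). In muscle, vehicle libraries had 404, 141 and 64.5 CPM and quercetin libraries 259, 57.9 and 56.1 CPM (-0.75 ± 0.81). Here too the arms overlapped, and the estimate was 0.26 without vehicle 1.

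Across tissues, Irs2 had 56.1 to 404 CPM in muscle (median 103), 31.1 to 209 CPM in brown fat (median 87.3) and 31.4 to 296 CPM in white fat (median 37.8). White fat minus muscle was -1.27 ± 0.60 (adjusted p = 0.0881) and passed only without white fat vehicle 1 among the single libraries left out (-2.05, adjusted p = 0.00638). The ratio of Irs1 to Irs2, both per kilobase, was 0.0148, 0.154 and 0.332 in muscle vehicle libraries and 0.161, 1.05 and 0.638 in muscle quercetin libraries. These arms overlapped through quercetin 1. The mean difference was 2.39 on the log2 scale (exact permutation test, two-sided, p = 0.2, where 0.1 is the smallest p for 3 against 3, and 0.514 adjusted over 12 ratio tests). Irs2 was above Irs1 per kilobase in 17 of 18 libraries, the exception being muscle quercetin 2.

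**Figure D2:**
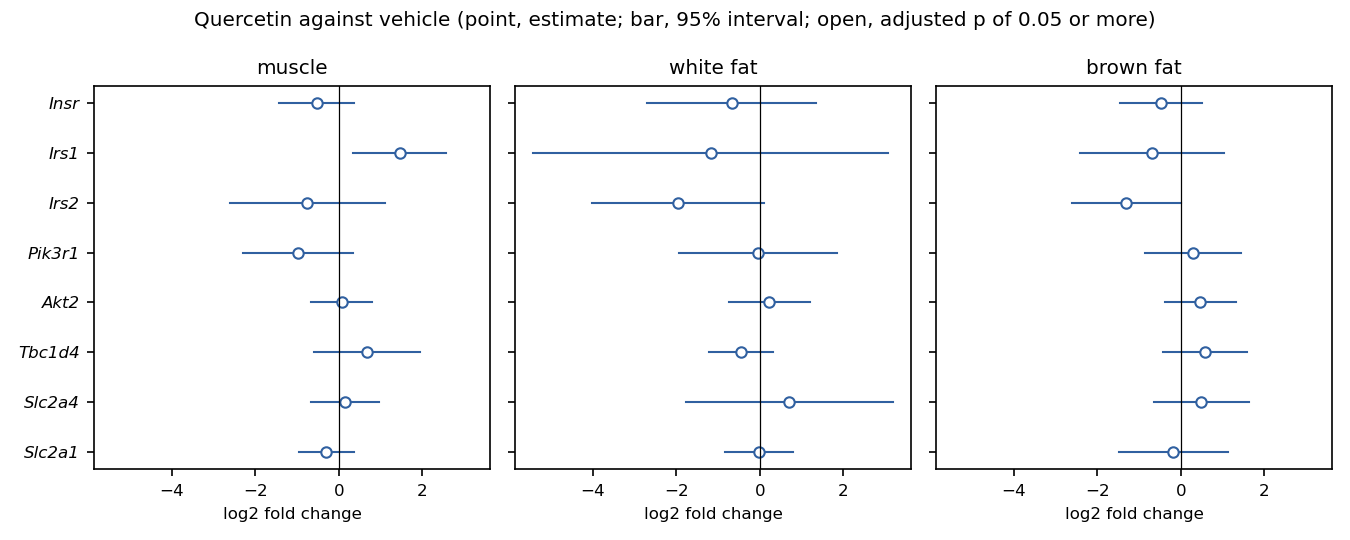
Log2 fold change of each gene with quercetin against vehicle in muscle, white fat and brown fat (edgeR, 3 against 3 libraries); points are estimates, bars 95% intervals, and open points have an adjusted p of 0.05 or more. All points are open; the intervals of Irs1 in muscle (0.34 to 2.57) and Irs2 in brown fat (-2.60 to -0.0034) leave out 0.

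Pik3r1 (chromosome 13, 101680563 to 101768217, minus strand) encodes the p85 alpha regulatory subunit of PI3 kinase, which binds phosphorylated IRS proteins. It did not differ past the threshold between tissues or arms. Muscle libraries had 64.2 to 368 CPM (median 119), brown fat libraries 125 to 391 CPM (158) and white fat libraries 88.7 to 412 CPM (160.4). Muscle vehicle libraries had 368, 64.2 and 201 CPM and quercetin libraries 96.6, 133 and 106 CPM (log2 fold change -0.97 ± 0.57). Vehicle libraries thus held both the highest and the lowest value, and the estimate was -0.28 without vehicle 1 and -1.41 without vehicle 2. White fat had 412, 98.1 and 146 CPM with vehicle and 88.7, 380 and 174 CPM with quercetin (-0.05 ± 0.78), with the 2 highest values again in vehicle 1 and quercetin 2. Brown fat had 125, 166 and 271 CPM and 150, 391 and 144 CPM (0.29 ± 0.49), and the arms overlapped.

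Akt2, the AKT isoform that carries the insulin signal to GLUT4 (chromosome 7, 27591552 to 27640826, plus strand), was lower in white fat than in the other tissues. White fat libraries had 154 to 290 CPM (median 217), muscle 377 to 585 CPM (463) and brown fat 309 to 739 CPM (444). No white fat library reached the lowest library of muscle or brown fat, whereas muscle and brown fat overlapped. The difference was 1.11 ± 0.26 (SE, adjusted p = 0.00361) for brown minus white fat and -1.13 ± 0.26 (adjusted p = 0.00223) for white fat minus muscle, and each call held with any of the 18 libraries left out. Brown fat minus muscle was -0.02 ± 0.25 (95% interval -0.56 to 0.52). Among vehicle libraries alone, brown minus white fat was 0.99805 and did not pass (adjusted p = 0.0647). With quercetin, brown fat had 739, 591 and 335 CPM against 309, 433 and 454 CPM with vehicle (0.47 ± 0.37). The lowest quercetin library was quercetin 3, and it lay within the vehicle range. It is the one with muscle transcripts and the lowest brown adipocyte marker sum of brown fat. Muscle had 585, 414 and 377 CPM with vehicle and 442, 484 and 557 CPM with quercetin (0.06 ± 0.32). White fat had 266, 154 and 179 CPM and 166, 290 and 254 CPM (0.23 ± 0.40), and the arms overlapped in all 3 tissues.

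Tbc1d4 (chromosome 14, 101442360 to 101609191, minus strand), the AKT substrate that holds GLUT4 vesicles inside the cell, had ranges that overlapped between tissues. Muscle libraries had 12.0 to 84.1 CPM (median 56.1), brown fat libraries 36.5 to 111 CPM (72.8) and white fat libraries 30.3 to 62.2 CPM (40.7). No tissue difference passed, and the nearest was brown minus white fat at 0.70 ± 0.36 (adjusted p = 0.134). Muscle vehicle libraries had 12.0, 41.0 and 67.2 CPM and quercetin libraries 84.1, 54.9 and 57.2 CPM (0.67 ± 0.55). Vehicle 3 lay within the quercetin arm, and the estimate was 0.25 without vehicle 1 and 1.28 without vehicle 3. White fat had 32.6, 62.2 and 58.5 CPM and then 30.3, 39.3 and 42.2 CPM with quercetin (-0.45 ± 0.32). Brown fat had 36.5, 92.0 and 44.9 CPM and then 111, 95.8 and 53.5 CPM (0.58 ± 0.43). Both of these pairs of arms overlapped as well.

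Slc2a4 (chromosome 11, 69942539 to 69948188, minus strand) encodes GLUT4, the insulin-responsive glucose transporter. Muscle libraries had 433 to 891 CPM (median 687), brown fat 225 to 837 CPM (506) and white fat 9.18 to 157 CPM (77.2). The highest white fat library lay below the lowest of brown fat and of muscle. White fat minus muscle was -3.09 ± 0.56 (adjusted p = 0.000436) and brown minus white fat 2.62 ± 0.55 (adjusted p = 0.00194), and both calls held with any of the 18 libraries left out. Brown fat minus muscle was -0.48 ± 0.52 (95% interval -1.58 to 0.62, adjusted p = 0.549).

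The white fat level of Slc2a4 moved with the adipocyte marker sum of the libraries. White fat vehicle libraries had 145, 9.18 and 31.7 CPM and quercetin libraries 46.7, 157 and 108 CPM. The lowest was vehicle 2, which had the lowest adipocyte marker sum, and the 2 highest were vehicle 1 and quercetin 2, which had the highest. Set against 1000 CPM of the 8 adipocyte markers, Slc2a4 was at 3.32, 12.9 and 3.41 CPM with vehicle and 6.29, 6.74 and 6.66 CPM with quercetin. In brown fat the same ratio was 12.0, 33.1 and 21.6 with vehicle and 42.6, 37.2 and 11.9 with quercetin. White and brown fat overlapped on this scale through white fat vehicle 2. The muscle marker sum of that library, multiplied by the ratio of Slc2a4 to those markers in muscle, is 7.46 CPM, or 81.3% of its Slc2a4 level. The same product was at most 1.21% of the level in the other 5 white fat libraries. For brown fat quercetin 3 it was 206 of 294 CPM, or 69.9%, for vehicle 1 it was 14.3%, and for the other 4 at most 2.68%. For Irs1, Irs2, Insr and Akt2 in brown fat quercetin 3 the product was 394%, 106%, 59.0% and 46.4% of the measured level. A product above the measured level cannot be a share, so these values are a rough guide only. Without muscle vehicle 3, muscle quercetin 2, white fat vehicle 2 and brown fat quercetin 3 together, brown minus white fat for Slc2a4 was 2.52 (adjusted p = 0.00326).

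Quercetin estimates for Slc2a4 were above 0 in all 3 tissues and did not pass. Muscle had 715, 775 and 433 CPM with vehicle and 636, 659 and 891 CPM with quercetin (0.14 ± 0.35). The white fat estimate was 0.70 ± 1.02 and moved to 2.35 without vehicle 1. Brown fat had 225, 571 and 441 CPM with vehicle and 837, 623 and 294 CPM with quercetin (0.49 ± 0.49). Quercetin 3 lay inside the vehicle range, and the other 2 lay above it. Besides its muscle transcripts, quercetin 3 had the lowest brown adipocyte and the highest adipocyte marker sum of brown fat. The part of muscle RNA and of fat cell content in these estimates was not tested.

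**Figure D3:**
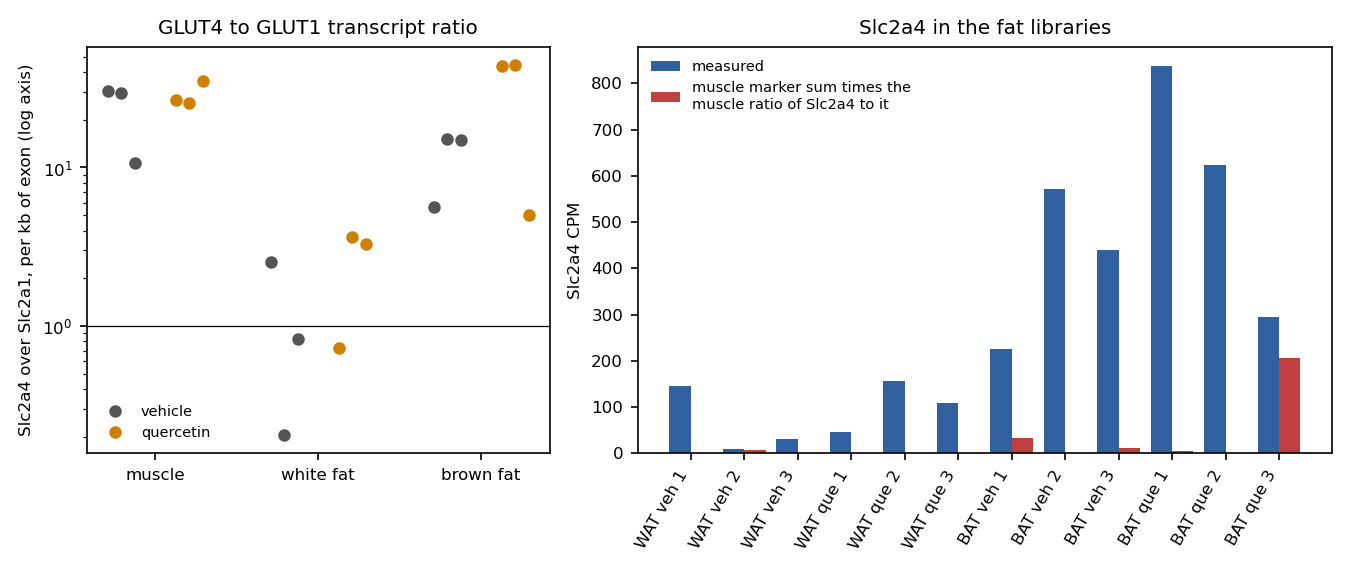
Left, ratio of Slc2a4 to Slc2a1 per kilobase of exon (log axis) in each library by tissue and arm, with a line at 1; right, Slc2a4 in the 12 fat libraries (CPM) beside the level that the muscle marker sum of that library would bring at the ratio found in muscle. Muscle libraries lie at 10.7 to 35.3 and white fat libraries at 0.206 to 3.62 on the left, and brown fat quercetin 3 has the largest muscle product, 206 CPM, on the right.

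Slc2a1 (chromosome 4, 119108711 to 119137983, plus strand) encodes GLUT1, the basal glucose transporter. Its medians had the opposite order to those of Slc2a4: 33.1 to 65.1 CPM (median 44.3) in white fat, 23.8 to 40.7 CPM (25.8) in muscle and 14.3 to 58.9 CPM (33.9) in brown fat. The 3 ranges overlapped. White fat minus muscle was 0.77 ± 0.31 and passed narrowly (adjusted p = 0.0467), but the call was lost with 13 of the 18 libraries left out one at a time, with adjusted p-values up to 0.150. It was also lost with the replicate block, which here takes each title code as 1 mouse (edgeR adjusted p = 0.0704), and with other size factors. The same held without the filter on low counts, on 1 flow cell and in either arm alone. DESeq2, voom and the fit without the 4 libraries with foreign or few fat transcripts kept the call. Brown minus white fat was -0.50 (-0.94 to -0.31 with single libraries left out) and did not pass. It was called with voom, without those 4 libraries and without brown fat quercetin 3. Muscle vehicle libraries had 23.8, 26.3 and 40.7 CPM and quercetin libraries 24.1, 26.0 and 25.5 CPM (-0.31 ± 0.29). The high value was in vehicle 3, the muscle library with the highest adipocyte marker sum, and without it the estimate was -0.029. White fat had 57.7, 45.0 and 38.5 CPM with vehicle and 65.1, 43.7 and 33.1 CPM with quercetin (-0.02 ± 0.34). Brown fat had 40.4, 38.0 and 29.9 CPM and then 19.2, 14.3 and 58.9 CPM (-0.19 ± 0.56). In brown fat, 2 quercetin libraries lay below and quercetin 3 above all vehicle libraries. Quercetin 3 had muscle transcripts and the lowest brown adipocyte marker sum of brown fat.

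Per kilobase of exon, Slc2a4 exceeded Slc2a1 in every muscle and brown fat library. The ratio was 30.3, 29.7 and 10.7 in muscle vehicle libraries and 26.5, 25.5 and 35.3 in muscle quercetin libraries. Brown fat had 5.61, 15.2 and 14.9 with vehicle and 43.9, 44.0 and 5.03 with quercetin. White fat had 2.53, 0.206 and 0.829 with vehicle and 0.723, 3.62 and 3.28 with quercetin, so that GLUT1 was the more abundant transcript in 3 of 6 libraries. White fat did not overlap with the other tissues. The log2 ratio was lower in white fat than in muscle by a mean difference of -4.32, and higher in brown than in white fat by 3.61 (exact permutation tests, two-sided, n = 6 against 6, p = 0.00216 and 0.0130 adjusted over 12 ratio tests for each). Brown fat and muscle differed by -0.71 (p = 0.275 in the same exact test). With each title code as 1 mouse, the difference from white fat had the same sign in 6 of 6 pairs for both tissues, and the exact sign-flip permutation p was 0.0312, the smallest that 6 pairs allow, and 0.0938 adjusted over 6 tests, so it did not pass. For quercetin against vehicle the exact permutation p was 0.7 in muscle, 0.3 in white fat and 0.6 in brown fat.

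Over all 8 genes, 2 passed between brown and white fat, 0 between brown fat and muscle and 3 between white fat and muscle. The shares of all 16388 genes tested were 40.3%, 27.2% and 50.3%. Between brown fat and muscle, 0 of 8 were under an unadjusted p of 0.05 in edgeR and 0 passed with DESeq2, while limma's voom with library weights called Irs1 and Pik3r1. Libraries of the tissues stood fully apart for Slc2a4 and Akt2 in both comparisons with white fat and for none of the 8 between brown fat and muscle. The same held for 13.7% (brown against white fat), 25.2% (white fat against muscle) and 17.2% (brown fat against muscle) of genes with a mean of at least 1 CPM.

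**Figure D4:**
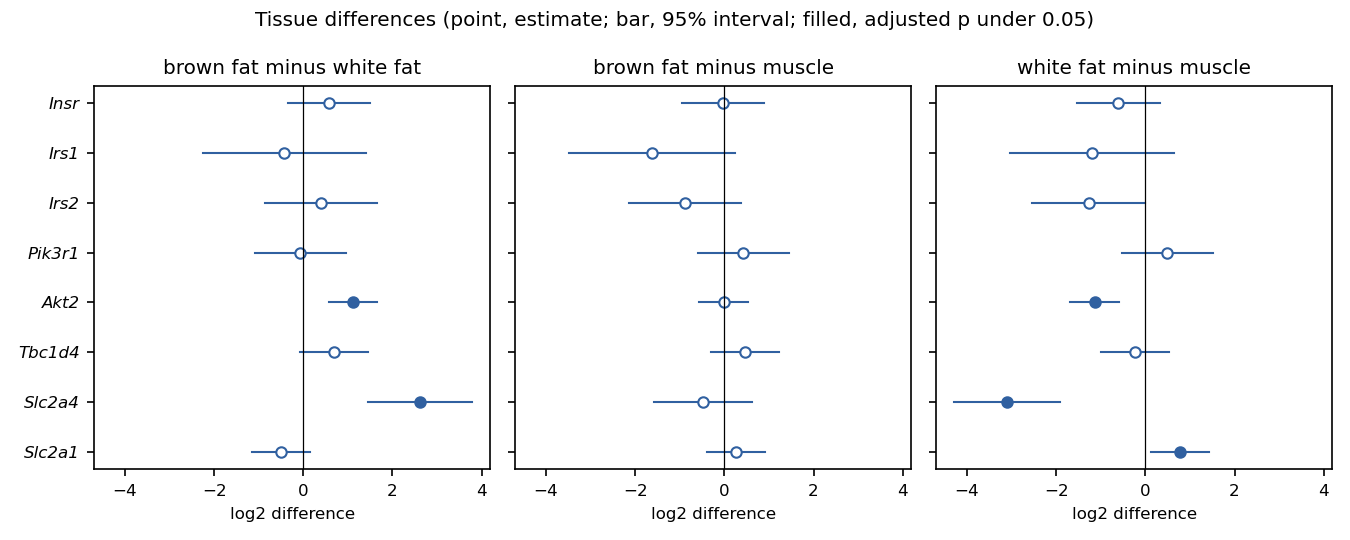
Log2 difference of each gene between tissues, over both arms, in a fit of the 18 libraries; points are estimates, bars 95% intervals, and filled points have an adjusted p under 0.05. Akt2 and Slc2a4 are filled in both comparisons with white fat, Slc2a1 only for white fat against muscle.

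With quercetin, 0 of 8 genes passed in muscle, white fat or brown fat, where 0% of 13562, 14919 and 13274 genes tested passed. By unadjusted p under 0.05, edgeR gave 1 of 8 in muscle (Irs1), 0 in white fat and 1 in brown fat (Irs2), and 406, 122 and 241 of all genes. DESeq2 called 0 of the 8 genes in each tissue, with 0, 7 and 2 calls over all genes, and voom called 0 genes. Arms without overlap were seen for Irs1 in muscle, Irs2 in white fat and none in brown fat, where the share over all genes was 6.22%. The quercetin effect did not differ between tissues past the threshold for any of the 8 genes, nor for any of 16388 genes (0%, 173 to 231 genes at an unadjusted p under 0.05). DESeq2 called 0 of the 8 here as well, with 2 to 13 calls over all genes. The 95% intervals were wide: for Slc2a4 they ran from -1.78 to 3.19 in white fat, from -0.65 to 1.63 in brown fat and from -0.67 to 0.96 in muscle.

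Muscle vehicle 1 stood apart within its arm. White fat vehicle 1 and brown fat vehicle 1 carry the same title code, PEG1, so the libraries named vehicle 1 may come from 1 mouse. Estimates without this code in all tissues at once were not computed. It had the highest muscle value of Insr, Irs2, Pik3r1 and Akt2 and the lowest of Irs1, Tbc1d4 and Slc2a1. It had the lowest muscle sums of fibroblast markers (340 CPM, against 1185 to 2265 CPM in the other 5), macrophage markers (117 against 347 to 689 CPM) and nerve markers (109 against 198 to 309 CPM), whose part in its levels was not tested. It also had the highest value of 9 of 11 FoxO targets, genes that FoxO factors switch on when insulin signalling is low. Trim63, an atrophy ubiquitin ligase, was at 8480 CPM there and at 421 to 861 CPM in the other 5 muscle libraries. Fbxo32, another such ligase, was at 5923 CPM against 273 to 412 CPM, and Pdk4, which blocks glucose oxidation, at 7697 CPM against 1657 to 2526 CPM. In the other 2 vehicle libraries Trim63 was at 824 and 861 CPM, above the 421 to 591 CPM of the 3 quercetin libraries. Without this library the muscle estimates with quercetin were 1.07 for Irs1, 0.26 for Irs2 and 0.25 for Tbc1d4.

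The FoxO target list as a whole had 9 of 11 estimates below 0 with quercetin in muscle (median log2 fold change -1.80, against -0.03 for all genes), and 0 passed. Without muscle vehicle 1 it had 10 of 11 below 0 and a median of -0.36. In white fat 10 of 10 tested were below 0 (median -0.38, all genes -0.01), and 6 of 10 without vehicle 1, with a median of -0.42. In brown fat it was 9 of 11 (median -0.46, all genes 0.05), and without vehicle 1 it was 5 of 11 with a median of 0.14. The 2 pathway genes with the smallest p in muscle were Gadd45a, a growth arrest gene, with 108 to 356 CPM with vehicle and 40.5 to 57.5 CPM with quercetin (-1.96 ± 0.52, unadjusted p = 0.00570, adjusted p = 0.910), and Foxo1, an AKT-inhibited transcription factor, with 95.8 to 219 and 52.2 to 61.7 CPM (-1.33 ± 0.39). Their arms did not overlap, as for 9.16% of muscle genes, and neither passed. With single libraries left out the estimates ran from -2.25 to -1.12 for Gadd45a and from -1.55 to -0.80 for Foxo1.

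In white fat the smallest p-values among pathway genes belonged to Phlpp1, a phosphatase that inactivates AKT (24.3 to 35.8 CPM with vehicle, 14.7 to 18.5 CPM with quercetin, -0.84 ± 0.30), and Cited2, a transcriptional coregulator (48.1 to 68.8 and 33.7 to 40.2 CPM, -0.64 ± 0.27). In brown fat they belonged to Trib3, a pseudokinase that binds AKT, and Bnip3, a mitophagy receptor. Trib3 was at 155, 15.3 and 8.78 CPM with vehicle and 12.0, 10.0 and 7.42 CPM with quercetin, and its estimate of -2.62 ± 1.04 ranged from -3.14 to -0.30 with single libraries left out. Bnip3 was at 275 to 285 CPM with vehicle and 106 to 225 CPM with quercetin (-0.83 ± 0.34). None passed: all adjusted p-values of these 4 were 0.977 or higher. Over 8 lists with 110 genes of the pathway, 0 of 103, 104 and 105 tested genes passed in muscle, white fat and brown fat. In any alternative fit 0 passed as well. At an unadjusted p under 0.05 in edgeR there were 13, 1 and 2 of them, against 406 of 13562, 122 of 14919 and 241 of 13274 among all genes.

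Of the other lists with quercetin, AKT targets had 11 of 13 estimates below 0 in muscle (median -0.43, and -0.04 without vehicle 1), 8 of 13 in white fat (3 of 13 without vehicle 1) and 6 of 13 in brown fat. Other glucose transporters and hexokinases had 6 of 8, 8 of 9 and 9 of 10 above 0, with medians of 0.37, 0.16 and 0.44, against -0.03, -0.01 and 0.05 for all genes. That median was 0.15 in muscle without vehicle 1, and in white fat it was -0.016, with 4 of 9 above 0, without quercetin 2 and 0.44 without quercetin 1. With all libraries, receptors and adaptors, PI3 kinase and AKT subunits, GLUT4 traffic genes and regulators of the Slc2a4 gene had medians between -0.15 and 0.08 in every tissue, and inhibitors between -0.01 and 0.15. The medians of regulators moved most with single libraries left out: to 0.88 in white fat without vehicle 1, with 11 of 12 above 0 against 5 of 12, and in muscle to -0.32 without vehicle 2 and 0.30 without vehicle 3. Receptors and adaptors reached -0.34 in muscle without quercetin 1 and 0.25 in white fat without vehicle 1, and inhibitors 0.42 in muscle without vehicle 3.

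Between tissues, 42 of 108 tested pathway genes passed for brown against white fat, 41 for brown fat against muscle and 64 for white fat against muscle. Of all genes tested, 40.3%, 27.2% and 50.3% passed. Among all genes 18.3% were higher and 22% lower in brown than in white fat, 13.9% higher and 13.3% lower in brown fat than in muscle, and 28.6% higher and 21.7% lower in white fat than in muscle. Regulators of the Slc2a4 gene had 11 of 12 calls between white fat and muscle (5 higher, 6 lower), 8 of 12 between brown fat and muscle (5 higher, 3 lower) and 1 of 12 between the fats. That 1 was Ppargc1a, the PGC-1 alpha coactivator of mitochondrial genes, at 40.8 ± 34.8 CPM in brown fat, 2.29 ± 1.27 CPM in white fat and 71.7 ± 35.2 CPM in muscle (SD, n = 6). Mef2c, a muscle transcription factor that acts on the Slc2a4 promoter, was at 487 ± 231 CPM in muscle, 77.5 ± 49.7 CPM in white fat and 31.8 ± 30.8 CPM in brown fat. Pparg, the master regulator of adipocytes, was at 279 ± 81.0 CPM in brown fat and 22.8 ± 15.3 CPM in muscle. The means of Ppargc1a had the same order over the tissues as those of Slc2a4, and so had those of Foxo4, given below. Between muscle and brown fat Slc2a4 did not pass the test.

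**Figure D5:**
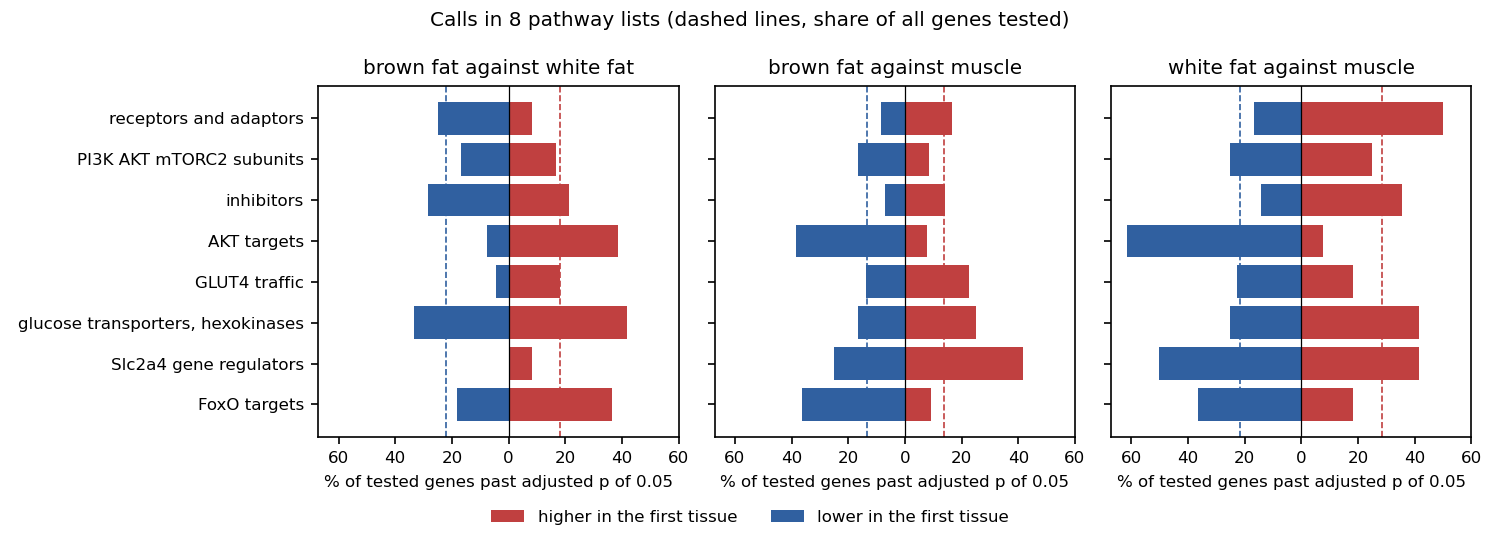
Share of the tested genes of each of 8 pathway lists past an adjusted p of 0.05 between tissues, higher (right) or lower (left) in the tissue named first; dashed lines are the share of all genes tested. AKT targets reach 8 of 13 lower in white fat than in muscle, where 21.7% of all genes were lower.

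AKT targets had 9 of 13 calls between white fat and muscle, 8 of them lower in white fat. Of all genes, 50.3% were called there and 21.7% were lower. Foxo4, an AKT-inhibited transcription factor, was at 36.2 ± 3.03 CPM in white fat, 74.1 ± 17.98 CPM in brown fat and 174 ± 36.8 CPM in muscle. Tbc1d1, the TBC1D4 paralogue of fast muscle, was at 102 ± 27.7 CPM in muscle, 43.4 ± 8.99 CPM in white fat and 17.5 ± 6.68 CPM in brown fat. Its order differed from that of Tbc1d4, whose 3 ranges overlapped. Pde3b, the phosphodiesterase by which insulin holds back lipolysis, was higher in both fats, at 327 ± 160 CPM in brown fat and 197 ± 184 CPM in white fat against 30.7 ± 49.0 CPM in muscle.

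Receptors and adaptors had 4, 3 and 8 of 12 tested genes called for brown against white fat, brown fat against muscle and white fat against muscle. The shares of all genes were 40.3%, 27.2% and 50.3%. Sh2b2 (APS), an adaptor of the activated receptor, was at 179 ± 89.5 CPM in brown fat, 43.9 ± 17.3 CPM in white fat and 12.9 ± 10.0 CPM in muscle. Irs3, a further IRS adaptor of rodent fat, was at 34.4 ± 25.6 CPM in brown fat and 3.59 ± 2.45 CPM in muscle. Dok1, an adaptor abundant in immune cells, was at 34.2 ± 16.1 CPM in white fat, 7.70 ± 9.83 CPM in brown fat and 6.35 ± 2.33 CPM in muscle. Insrr, a receptor relative, was called at a low level (2.67 ± 1.87 CPM in white fat, 0.290 ± 0.310 CPM in muscle).

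PI3 kinase, AKT and mTORC2 genes had 4, 3 and 6 of 12 calls in the same order of comparisons, against 40.3%, 27.2% and 50.3% of all genes. Pik3cd, the catalytic subunit found mostly in leukocytes, was at 170 ± 115 CPM in white fat, 10.3 ± 6.43 CPM in brown fat and 14.6 ± 7.04 CPM in muscle. Pik3cb was at 32.0 ± 19.1 CPM in white fat and 14.8 ± 4.55 CPM in muscle. White fat was also the tissue with B cell marker sums of up to 2969 CPM, where muscle and brown fat had at most 4.32 CPM, and the part of immune cells in these levels was not tested. Mtor was at 200 ± 72.8 CPM in brown fat, 49.0 ± 15.6 CPM in white fat and 79.7 ± 17.2 CPM in muscle. Rictor, the subunit that defines mTORC2, was at 23.7 ± 5.62 CPM in brown fat and 40.4 ± 9.49 CPM in muscle.

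Inhibitors of the pathway had 7, 3 and 7 of 14 calls, against 40.3%, 27.2% and 50.3% of all genes. Socs1, a cytokine-induced inhibitor, was at 20.4 ± 13.5 CPM in white fat, 3.24 ± 4.74 CPM in brown fat and 2.17 ± 1.79 CPM in muscle. Enpp1, which interferes with the receptor, was at 15.7 ± 12.0 CPM in white fat, 1.78 ± 0.714 CPM in brown fat and 5.43 ± 1.31 CPM in muscle. Trib3 was at 34.8 ± 59.0 CPM in brown fat against 2.55 ± 1.07 CPM in muscle, with 155 CPM in brown fat vehicle 1. Grb14, an adaptor that blocks the receptor kinase, was at 25.8 ± 12.6 CPM in muscle and 8.77 ± 12.5 CPM in white fat.

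GLUT4 traffic genes had 5, 8 and 9 of 22 calls, against 40.3%, 27.2% and 50.3% of all genes. Trarg1, a protein of GLUT4 vesicles in fat cells, was at 242 ± 90.0 CPM in brown fat, 142 ± 138 CPM in white fat and 17.4 ± 20.8 CPM in muscle. Rhoq (TC10) was at 168 ± 55.3 CPM in brown and 57.2 ± 12.7 CPM in white fat, and Rala, a GTPase of exocyst-dependent GLUT4 delivery, at 91.6 ± 22.3 and 39.5 ± 6.93 CPM. Stxbp4 (Synip), a syntaxin-binding protein, was at 16.6 ± 9.77 CPM in muscle, 3.64 ± 2.54 CPM in brown fat and 2.78 ± 1.93 CPM in white fat.

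Other glucose transporters and hexokinases had 9, 5 and 8 of 12 calls, against 40.3%, 27.2% and 50.3% of all genes. Slc2a5, the fructose transporter GLUT5, was at 28.4 ± 39.95 CPM in brown fat, 1.14 ± 1.44 CPM in white fat and 0.521 ± 0.994 CPM in muscle. Slc2a6 was at 8.19 ± 4.70 CPM in white fat and 0.577 ± 0.350 CPM in muscle. Hk1 was at 138 ± 42.4 CPM in brown fat and 31.3 ± 5.32 CPM in muscle. FoxO targets had 6, 5 and 6 of 11 calls, against the same shares of all genes. Pdk4 was at 2632 ± 872 CPM in brown fat and 271 ± 513 CPM in white fat, where vehicle 1 had 1315 CPM. Trim63 and Fbxo32 were mostly muscle transcripts, at 1944 ± 3207 and 1285 ± 2273 CPM there. In brown fat both were highest in vehicle 1 (598 and 339 CPM) and next in quercetin 3 (265 and 118 CPM). These 2 libraries had the largest muscle marker sums of brown fat, but the sum was smaller in vehicle 1 (5825 CPM) than in quercetin 3 (37227 CPM). The source of these transcripts in brown fat was not tested. Gadd45a was at 121 ± 119 CPM in muscle and 17.7 ± 23.2 CPM in brown fat.

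The genes whose log2 CPM was most like that of each member over the 18 libraries were ranked among 14737 genes by Pearson's r, as a description. The points share tissues, and a gene that differs between tissues as the member does has a high r. For Slc2a4 they were Pdk2 (r = 0.974), a pyruvate dehydrogenase kinase, Coq9 (0.957), a gene of ubiquinone synthesis, and Cd99l2 (0.956). For Akt2 they were Snx21 (0.950), Dnajc28 (0.949) and Mmachc (0.949). For Insr they were Plcb4 (0.946), Adgrf5 (0.938) and Bnip3 (0.937), for Irs1 Tspan9 (0.941), Lmbr1 (0.921) and Lama2 (0.900), and for Pik3r1 Net1 (0.929), D830026I12Rik (0.846) and Sec31a (0.825). Values were lower for the named genes of Irs2 (Trim24 0.868, 4930590J08Rik 0.862), Tbc1d4 (Wdr92 0.852, Mrm2 0.844, D2hgdh 0.835) and Slc2a1 (Fxyd5 0.817, Pde1b 0.812, Tpm4 0.808). No member was among the nearest 3 of another.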

How the data were processed

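The deposited files hold 1 raw count per Ensembl gene and library, not normalised. The tools named, per the submitters' processing notes, are HISAT2, HTSeq and DESeq2, and the build is mm10; the sources used here give no versions, annotation or strand setting. TRIzol extraction and a NEBNext Ultra kit are named per the labels' protocols. Symbols (53360 of 53465 identifiers), coordinates and exon lengths came from the GENCODE annotation of GRCm38. The 5 summary lines of each file were left out: they held 2.53 to 9.11% of reads as outside any feature and 6.47 to 9.84% as ambiguous.

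Each tissue was tested with edgeR 4.0.16 in R 4.3.3 (filterByExpr with a minimum count of 10 and total of 15, TMM, quasi-likelihood F test, two-sided, Benjamini-Hochberg over all genes, threshold 0.05). Tissue differences, as means of both arms, and interactions came from 1 fit of all 18 libraries. CPM use the TMM factors of the 18 libraries. Alternatives were DESeq2 1.42.0, limma 3.58.1 with voom, other size factors, no filter, a replicate block, 1 flow cell and single libraries left out. The replicate block went by replicate number across arms in the quercetin tests and by title code in the tests between tissues. Calculations were tested on simulated data. Counts of replicates differed by more than sampling noise (chi-square per degree of freedom at least 27.0). Members, lists and alternatives were chosen with earlier results of these data known. Named genes were the 8 members, the 3 genes most like each, up to 2 genes of each pathway list with the largest difference among those past the threshold per tissue comparison, and, where none passed with quercetin, the 2 pathway genes with the smallest p per tissue. Some results under this rule are not reported here. Exact tests by title code were added after the results were seen.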

Additional observations from a re-analysis of the deposited data

How the results depend on the processing

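The calls for Slc2a4 and Akt2 against white fat kept their direction and side of the threshold with any single library left out. Of 379 estimates for the 8 genes in alternatives that keep all libraries or drop a named set, 326 kept direction and call, 7 lost the call, 14 gained one and 32 changed sign. Of 594 with 1 library left out these numbers were 543, 13, 5 and 33. Limma's voom called 6 of 8 between brown and white fat, 2 between brown fat and muscle and 6 between white fat and muscle, and over all genes 11053 against 6604 for brown against white fat and 7451 against 4461 for brown fat against muscle. Vehicle libraries alone gave 1 of 8 between brown and white fat, and flow cell H7H2WDSXX alone 5 of 8 between white fat and muscle. With single libraries left out, 2 to 3 of 8 were called for brown against white fat, 0 for brown fat against muscle and 2 to 5 for white fat against muscle (5 without white fat vehicle 1). With quercetin 0 of 8 were called in every alternative. Without the filter, 32 of 26302 genes were called in muscle, against 0 of 13562. The cause of these changes was not tested.

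Replicate numbers were not shown to pair the arms: deviations of same-numbered libraries correlated at -0.70 to 0.27 (2 of 9 pairs over 0.1). Between tissues, where the number is part of a shared title code, they correlated at -0.14 to 0.30 (11 of 18 pairs over 0.1). Among vehicle libraries, pairs of the same code were at 0.053 to 0.30 and pairs of different codes at -0.30 to 0.12. With quercetin these ranges were -0.14 to 0.15 and -0.18 to 0.14, so whether codes are mice is not settled. For quercetin, the replicate block went by replicate number within a tissue and so paired libraries of different title codes, such as PEG1 with QUE1. With it, 0 of 8 were called. Between tissues the block went by title code. It gave 2 calls between brown and white fat, 0 between brown fat and muscle and 2 between white fat and muscle (Akt2 and Slc2a4, Slc2a1 being lost). The block by replicate number turned Pik3r1 with quercetin in white fat to 0.027. The block by title code turned brown minus white fat to 0.058 for Irs1 and 0.15 for Pik3r1.

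Other sign changes of log2 estimates were all in values that had not passed. With quercetin in muscle, the single flow cell gave -0.030 for Akt2 and -0.026 for Slc2a4, and voom 0.12 for Pik3r1. In white fat, Insr was 0.22 with voom and 0.23 on the single flow cell. Pik3r1 was 0.0037 without the filter, 0.24 with voom and 0.063 on the flow cell, and Slc2a1 was 0.026 without the filter, 0.19 on the flow cell and 0.0080 in 1 fit of all libraries. In brown fat, Pik3r1 was -0.18 with voom. For brown minus white fat, Irs1 was 0.69 with voom and 1.70 on the flow cell, and Pik3r1 was 0.42 with voom, 0.093 among quercetin libraries and 0.71 on the flow cell. For brown fat minus muscle, Insr was 0.11 with voom and 0.070 without the 4 libraries with foreign or few fat transcripts. Akt2 was 0.24 with voom, 0.17 among quercetin libraries, 0.044 without the 4 libraries and 0.018 on the flow cell. Pik3r1 was -0.17 among vehicle libraries, and Slc2a1 was -0.13 with voom and -0.020 without the 4 libraries. For white fat minus muscle, vehicle libraries gave 0.12 for Irs1 and 0.35 for Tbc1d4, and the flow cell -0.31 for Pik3r1.

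Sign changes with single libraries left out gave these ranges. With quercetin in muscle they were -1.89 to 0.26 for Irs2, -0.060 to 0.30 for Akt2 and -0.071 to 0.29 for Slc2a4. In white fat they were -1.14 to 0.62 for Insr, -2.88 to 1.44 for Irs1, -0.80 to 0.84 for Pik3r1 and -0.29 to 0.18 for Slc2a1. In brown fat they were -0.32 to 0.64 for Pik3r1 and -1.15 to 0.17 for Slc2a1. Brown minus white fat gave -1.17 to 0.87 for Irs1 and -0.38 to 0.37 for Pik3r1. Brown fat minus muscle gave -0.33 to 0.19 for Insr, -0.15 to 0.11 for Akt2 and -0.17 to 0.44 for Slc2a1, and white fat minus muscle -0.45 to 0.068 for Tbc1d4.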

Other observations

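Because Irs2 had estimates below vehicle in each tissue, the mean quercetin effect over the 3 tissues was computed after these values were seen. For Irs2 it was -1.30 ± 0.49 on the log2 scale (SE, 95% interval -2.34 to -0.27, edgeR unadjusted p = 0.0171, adjusted p = 0.841), and -1.68 to -0.83 with single libraries left out. It did not pass. Of 16388 genes, 0 passed in this contrast with edgeR, 898 had an unadjusted p under 0.05, and DESeq2 called 4. Insr, also below vehicle in each tissue, gave -0.53 ± 0.35 (edgeR adjusted p = 0.841), and Slc2a4, above vehicle in each, 0.48 ± 0.42 (edgeR adjusted p = 0.859). These fits treat the libraries of a title code as independent, and no code was left out as a whole. With the mean log2 CPM of each code as 1 value (3 against 3), the exact permutation p was 0.2 for Irs2 (difference -1.12), 0.6 for Insr (-0.40) and 0.1 for Slc2a4 (0.70), where 0.1 is the smallest possible, and these tests were added after the values were seen.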
